A study of Mus musculus with 3 samples.

Results

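The genes described here are 48 type I interferon stimulated antiviral genes, taken by gene symbol from a list of such genes and not by any measured value. All 48 symbols were found, each under 1 gene identifier, among the 55536 annotated genes of the deposited gene tables, of which 22028 are protein-coding. They were measured in cytosolic RNA of macrophages grown from the bone marrow of C57BL/6J mice, by total RNA sequencing after removal of ribosomal RNA. The series holds 1 group of 3 libraries, biological replicates 1, 2 and 3, all at minute 0 of a time course with lipid A at 100 ng/ml. Lipid A is the membrane anchor of lipopolysaccharide and the ligand of TLR4. No mutant allele or transgene is named, and age and sex were not collected. All 3 libraries carry the same donor label, each has a biosample of its own, and nothing separates cultures from animals, so every SD below is the spread between 3 samples and may be technical.

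Type I interferons are secreted proteins that act through the receptor IFNAR1 and IFNAR2 on the same or a neighbouring cell. The kinases JAK1 and TYK2 then activate the transcription factor ISGF3, of which IRF9 is the DNA-binding part. ISGF3 binds the interferon-stimulated response element and switches on antiviral genes, whose products detect foreign RNA, block viral entry and release, or degrade and modify RNA and protein. Macrophages are known to keep a basal level of many of these genes without infection, through a low constant supply of interferon-beta.

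The response element was looked for in the promoter windows that RefSeq places from 250 bases before to 50 bases after each gene start (build GRCm38.p6), because the element is the sequence that ties these genes together. A window was found for 38 of the 48 genes. Usp18, Mx1, Mx2, Ifi27l2a, Rtp4, Oas2, Ifi204, Parp9, Parp14 and Zbp1 had none. The core searched for, on both strands, is GAAA, any 2 bases and GAAA again. It stood in a window of 18 of these 38 genes (47.4%), against 1079 of 27025 genes with a window (3.99%). The match is a description of letters, and binding was not measured. A window need not lie at the start in use. That of Ifi47 is at the start of Ifi47-202 (4.36% of the gene's TPM), while Ifi47-201 (94.4%) starts elsewhere and was not searched. The last 30 bases stood in an annotated transcript of the gene in 39 of the 47 windows. A stretch of 160 bases is shown for 5 genes, written along the gene's own strand with every base of a core in capitals. It ends at the base before the start in 4 of them, and for Ifit3b it lies 32 bases further upstream, so that it lines up with that of Ifit3. A core on the other strand reads TTTC, any 2 bases and TTTC. The genes were chosen because they carry overlapping or paired cores, and all but Isg15 belong to families with shared sequence.
Isg15, chr4:156200819-156200978, minus strand: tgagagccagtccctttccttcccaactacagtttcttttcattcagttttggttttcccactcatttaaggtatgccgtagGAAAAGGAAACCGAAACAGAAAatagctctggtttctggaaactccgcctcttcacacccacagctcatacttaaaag
Ifit1, chr19:34640729-34640888, plus strand: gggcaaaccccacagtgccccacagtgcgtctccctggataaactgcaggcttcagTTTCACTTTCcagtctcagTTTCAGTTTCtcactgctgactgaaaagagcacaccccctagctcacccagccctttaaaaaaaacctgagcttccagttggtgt
Ifit3, chr19:34583369-34583528, plus strand: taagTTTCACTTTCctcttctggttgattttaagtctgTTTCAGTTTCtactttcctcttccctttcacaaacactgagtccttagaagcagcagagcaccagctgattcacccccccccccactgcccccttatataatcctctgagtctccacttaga
Ifit3b, chr19:34607765-34607924, plus strand: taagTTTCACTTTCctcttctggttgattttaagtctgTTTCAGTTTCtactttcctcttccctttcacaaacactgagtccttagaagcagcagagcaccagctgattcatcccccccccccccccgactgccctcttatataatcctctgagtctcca
Oas1a, chr5:120907526-120907685, minus strand: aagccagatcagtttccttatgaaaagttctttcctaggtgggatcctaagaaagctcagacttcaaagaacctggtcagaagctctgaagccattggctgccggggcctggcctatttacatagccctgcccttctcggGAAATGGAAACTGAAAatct

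Isg15 held 3 overlapping cores, at positions -78, -72 and -66 counted from the start at +1. The Ifit3 and Ifit3b stretches were identical over their first 111 bases, with both cores inside that run. Oas1a and Oas1g held the same pair of overlapping cores close to the start, at -20 and -14 in Oas1a and at -18 and -12 in Oas1g. Bst2 held an overlapping pair at -130 and -124, and Ddx60 held separate cores at -53 and -19. In Ifitm3 and Eif2ak2 the cores lay just after the start, at 3 and 20 in Ifitm3 and at 19 in Eif2ak2. Single cores of 6 further genes, from these and other families, are shown with 10 bases on each side, to let the spacer bases be compared.
Oas3, chr5:120777715-120777744, minus strand: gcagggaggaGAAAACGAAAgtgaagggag
Ifi207, chr1:173741831-173741860, minus strand: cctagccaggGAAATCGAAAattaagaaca
Ifi211, chr1:173913064-173913093, minus strand: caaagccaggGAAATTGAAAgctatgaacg
Slfn8, chr11:83020839-83020868, minus strand: atttgagcagTTTCGTTTTCcccaaaagca
Rsad2, chr12:26456553-26456582, minus strand: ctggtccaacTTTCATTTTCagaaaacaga
Ifit1bl1, chr19:34602053-34602082, minus strand: actctgtaggTTTCATTTTCtgtaggttgg

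The windows held 31 cores, of which 1 in Slfn8 is counted in both of its overlapping windows, so 30 are distinct. The 31 began between -188 and 20, with a median of -66, and 27 of them began before the start. Another element, GAS (TTCNNNGAA, which reads the same on both strands and is known from interferon-gamma responses), stood in a window of 8 of the 38 genes (21.1%), against 2582 of 27025 genes (9.55%). The 18 genes with a core had a median mean level of 29.6 TPM and the 20 with a window but no core, which include Slfn2, Ifi44 and Ifit2, one of 16.7 TPM, while the 10 without a window had one of 23.4 TPM. The median difference of replicate 1 from the other libraries was 0.53 log2 units with a core, 0.49 with a window but no core and 0.38 without a window.

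**Figure D1:**
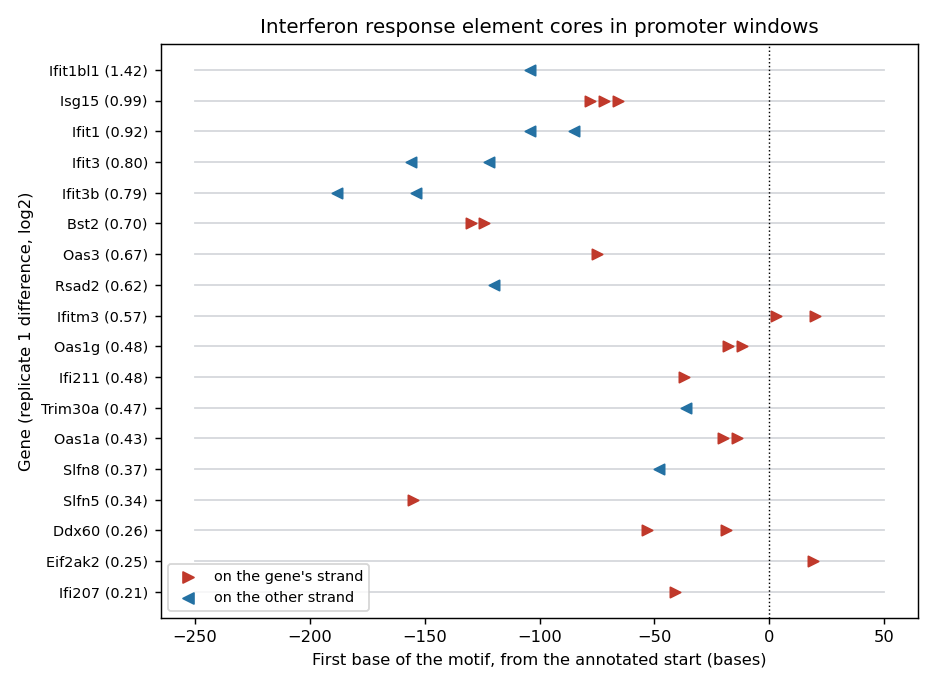
Position of each response element core (first base, in bases from the annotated start) in the promoter window of 18 genes, ordered from the highest to the lowest difference of replicate 1 from the other libraries (log2, in brackets); for genes with several windows the first that holds a core is drawn. Arrowheads give the strand, and the grey line is the window; Isg15 has 3 overlapping cores and Ifitm3 has both of its cores after the start.

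Expected counts over all genes came to 26318761, 41897257 and 56290298 in replicates 1, 2 and 3, and 255306, 272439 and 377574 of these fell on the 48 genes. No pair of libraries matched within sampling noise (chi-square per degree of freedom between 40.6 and 63.8). Of the 12 macrophage markers, 11 reached a TPM of at least 1 in every library, and Marco lay at or below 1.01. Marker lists of T and NK cells and of fibroblasts had no gene that reached 1. Counts were 0 throughout for 6 of 12 T and NK cell genes, among them Cd3e and Cd8a. They were 0 throughout for 1 of 9 fibroblast genes (Lum), and Col1a1 had 10, 7 and 30 counts in replicates 1, 2 and 3. Of the neutrophil markers 4 of 12 reached 1 in every library (S100a9, S100a8, Mmp8 and Ngp, with means of 10.8, 6.29, 4.71 and 1.83 TPM) while Ly6g was at 0 counts, and of the B cell markers 2 of 10 did (Ighm and Cd22, with means of 4.20 and 2.20 TPM). Their part in the results was not tested. Replicate 3 stood apart in 2 lists: nuclear-retained RNAs summed to 247, 226 and 1115 TPM, and mitochondrial mRNAs to 4455, 5419 and 8847 TPM, in replicates 1, 2 and 3. TPM is a level per unit of transcript length, set to a common total over all entries of a library.

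At 0 minutes nearly all of the antiviral genes were present in the cytosol. A TPM of at least 1 in all 3 libraries was reached by 47 of the 48, against 41.0% of the 22028 protein-coding genes. The median over the 48 genes was 30.3, 16.0 and 17.2 TPM in replicates 1, 2 and 3, against 8.01, 6.76 and 6.74 TPM over the 9023 protein-coding genes that reached 1 in every library. Together the 48 genes took 1.00, 0.708 and 0.722% of the TPM of protein-coding genes in the same order. Mean levels spanned 0.947 to 312 TPM, with 13 genes at 50 or more, 22 between 10 and 50, and 13 below 10. In the order of mean levels the library values of 46 of 47 neighbouring pairs overlapped, and the exception was Ifitm3, which lay above Slfn2 in every library value.

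**Figure D2:**
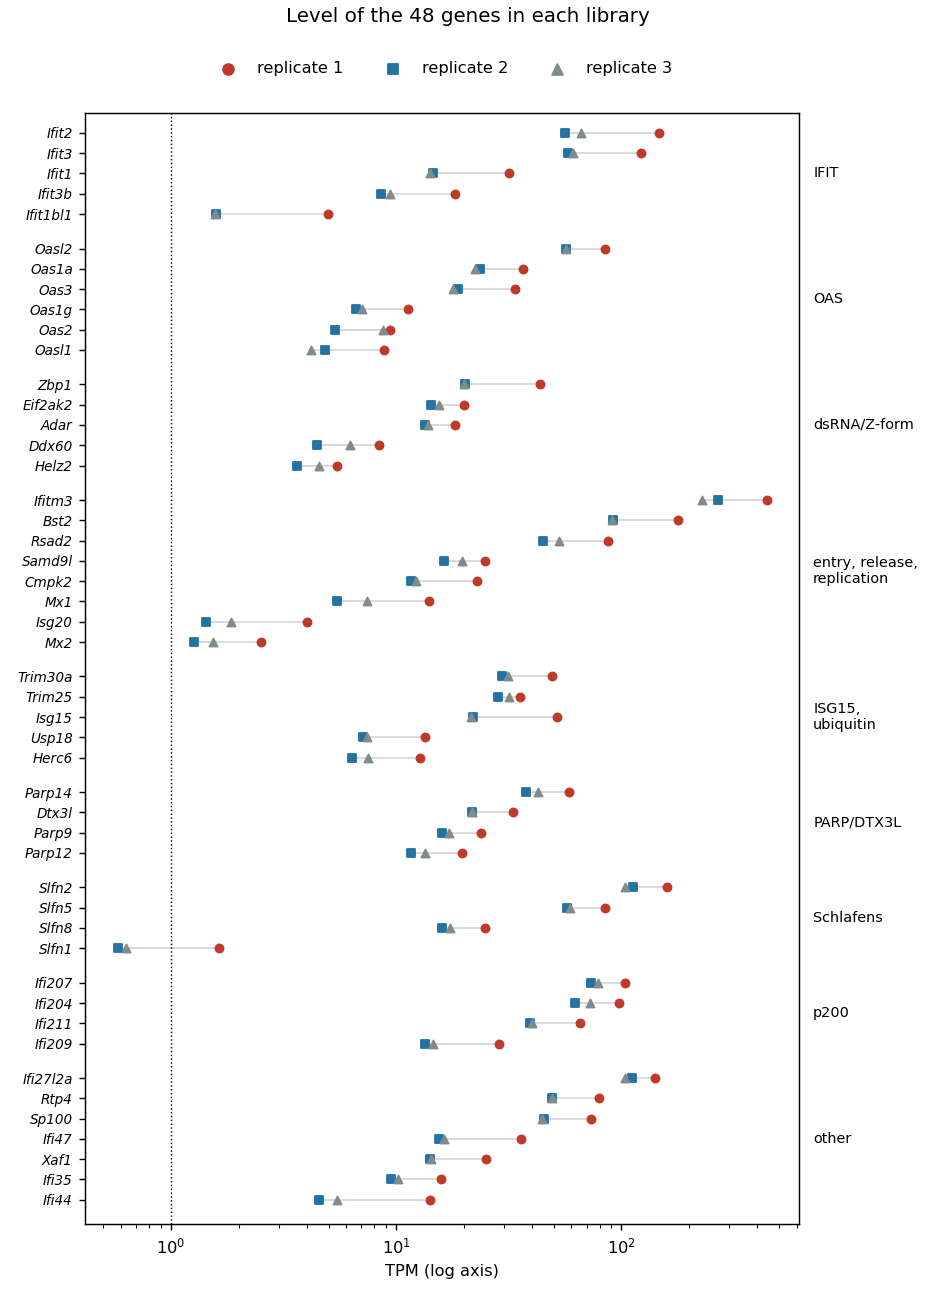
TPM (log axis) of the 48 genes in replicates 1, 2 and 3, grouped by role and ordered by mean within each group; the dotted line is 1 TPM. Replicate 1 is the right-most point of every row, and Slfn1 is the gene that lies below 1 TPM in replicates 2 and 3. In TPM, 72.0% of all genes that passed a filter on low counts were also highest in replicate 1.

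The IFIT proteins bind foreign or incompletely capped RNA and block its translation. Their 5 genes form a locus on chromosome 19 (34550694 to 34650009, mm10). Ifit2 had 147, 56.2 and 66.0 TPM in replicates 1, 2 and 3 (89.8 ± 49.9, SD, n = 3), and Ifit3 had 122, 57.6 and 61.0 TPM (80.2 ± 36.3). Ifit1bl1 was far lower, at 4.99, 1.59 and 1.56 TPM on 464, 266 and 340 counts. Replicates 2 and 3 lay close together for each of these genes and replicate 1 lay above both. Ifit1 averaged 20.2 ± 10.1 TPM and Ifit3b 12.0 ± 5.34. The split between Ifit3 and Ifit3b is uncertain, since only 38.2% of the 31-base words of Ifit3 transcripts and 44.8% of those of Ifit3b occur in no other gene.

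The oligoadenylate synthetases sense double-stranded RNA and make a messenger that activates RNase L. Oasl2, an OAS-like member, was the highest, at 84.7, 56.9 and 56.9 TPM in replicates 1, 2 and 3. Oas1a had 36.6, 23.6 and 22.4 TPM, and Oasl1, known in mouse as a brake on Irf7 translation, had 8.85, 4.83 and 4.19 TPM. Replicate 1 was highest for all 3. The remaining members, Oas3, Oas1g and Oas2, averaged between 7.80 and 23.4 TPM. Oas1a and Oas1g share 68.7% of the words of Oas1a, so their separate levels are uncertain. Oas2, Oas3, Oas1g and Oas1a lie together on chromosome 5 (120730333 to 120907521), and Oasl2 and Oasl1 form a second locus there (114896936 to 114937915).

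Among proteins that bind double-stranded or Z-form nucleic acid, Zbp1, a sensor that can start necroptosis, had 43.5, 20.2 and 20.0 TPM in replicates 1, 2 and 3. Eif2ak2, the kinase PKR that stops translation when it meets double-stranded RNA, had 20.0, 14.3 and 15.5 TPM. The gap between replicate 1 and the others was wide for Zbp1 and narrow for Eif2ak2. The RNA editing enzyme gene Adar averaged 15.1 ± 2.65 TPM, and the helicase genes Ddx60 and Helz2 averaged 6.38 ± 1.98 and 4.55 ± 0.920.

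Genes for blocks to entry, release and replication held the highest level of all. Ifitm3, which hinders fusion of viruses in endosomes, had 441, 267 and 227 TPM in replicates 1, 2 and 3 (312 ± 114). Bst2, the tetherin that holds budding virus at the cell surface, had 178, 91.7 and 90.5 TPM. Isg20, an RNA exonuclease, had 4.01, 1.43 and 1.85 TPM. Replicate 1 was highest for each, and replicates 2 and 3 were near one another for Bst2. The radical SAM enzyme gene Rsad2 (viperin) and its neighbour Cmpk2, a nucleotide kinase, share a locus on chromosome 12 (26442746 to 26479837) and averaged 61.6 ± 22.7 and 15.5 ± 6.27 TPM.

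In the ISG15 pathway, Isg15, the ubiquitin-like protein joined to newly made proteins, had 51.8, 21.9 and 21.5 TPM in replicates 1, 2 and 3. The gene for its mouse ligase, Herc6, averaged 8.88 ± 3.43 TPM, and Usp18, which removes ISG15 and restrains the interferon receptor, averaged 9.31 ± 3.59. The ubiquitin ligase genes were of the same order: Trim30a had 49.2, 29.4 and 31.5 TPM and Trim25, a ligase for the sensor RIG-I, had 35.5, 28.4 and 31.8. Trim25 was the most even of these 5 genes across libraries.

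The PARP group attaches ADP-ribose to proteins. Parp14 had 58.4, 37.7 and 42.6 TPM in replicates 1, 2 and 3, and Parp12 had 19.5, 11.7 and 13.5. Dtx3l, the ubiquitin ligase partner of Parp9, had 32.9, 21.7 and 21.7 TPM. All 3 were highest in replicate 1 with replicates 2 and 3 close together. Parp9 and Dtx3l overlap by 682 bases on opposite strands of chromosome 16, and whether the counting used strand is not given in the sources used here.

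Of the Schlafens, a family with RNA-cleaving members that in mouse also includes regulators of immune cell quiescence, Slfn2 had 159.8, 112 and 104 TPM in replicates 1, 2 and 3. Slfn5 had 84.3, 57.5 and 58.8 TPM. Slfn1 was the lowest of the 48 genes, with 1.63, 0.58 and 0.63 TPM on 126, 81 and 115 counts. Slfn2 and Slfn1, neighbours in a locus on chromosome 11 (82951349 to 83122670), thus had mean levels of 125 and 0.947 TPM. The p200 proteins bind DNA in the nucleus or cytosol. Ifi207 had 103, 73.4 and 79.0 TPM, Ifi204 had 97.1, 62.0 and 72.9, and Ifi209 had 28.7, 13.4 and 14.6. Words found in no other gene made up 85.2, 66.0, 52.8 and 21.1% of Ifi207, Ifi204, Ifi209 and Ifi211 transcripts, and Ifi211 overlaps Mndal on the same strand, so reads of the last could belong to relatives.

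Of the remaining genes, Ifi27l2a had 142, 112 and 104 TPM in replicates 1, 2 and 3. Rtp4, a receptor chaperone gene, had 79.3, 49.2 and 49.1 TPM, and Ifi44 had 14.2, 4.54 and 5.45. In TPM, replicate 1 stood at 1.31 times the mean of the others for Ifi27l2a and at 2.84 times for Ifi44. After the scaling between libraries described in the next paragraph, these folds were 1.05 and 2.63. The other 4, Sp100 of nuclear bodies, the immunity GTPase gene Ifi47, Xaf1 and Ifi35, averaged between 11.8 and 54.2 TPM.

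Differences between libraries were then measured on log2 CPM after TMM scaling (edgeR), which sets the typical gene equal between libraries; all 48 genes passed the filter on low counts, with 12413 genes in all. The 48 genes were higher in replicate 1. Over them the median difference of replicate 1 from the mean of replicates 2 and 3 was 0.48 log2 units (1.40-fold), against -0.0070 over all genes. Against replicate 3 alone the median for replicate 1 was 0.49, and against replicate 2 alone it was 0.51. The median difference from the other libraries was -0.31 for replicate 2 and -0.21 for replicate 3, against 0.0025 and 0.0023 over all genes. Both rest on replicate 1: without it the median was -0.063 for replicate 2 and 0.063 for replicate 3. Replicate 1 was the highest library for 46 of 48 genes, against 33.0% of all genes; replicate 2 was highest for 0, against 30.9%, and replicate 3 for 2, against 36.1%. The 48 genes were chosen without these values, but with earlier results of these data known, and 3 samples of 1 group allow no test between conditions.

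Size varied widely among the genes. Replicate 1 lay at least 0.5 log2 units above the others for 23 of 48 genes, against 2.57% of all genes, and at least 1 unit above for 4 of 48, against 47 of all 12413 (0.379%). The highest differences were 1.42 for Ifit1bl1, 1.39 for Ifi44, 1.17 for Slfn1 and 1.05 for Ifit2. The lowest were 0.023 for Trim25 and 0.076 for Ifi27l2a, and no gene was below 0. The median was 0.92 in the IFIT genes, 0.69 in the blocks to entry, release and replication and 0.57 in the ISG15 and ubiquitin genes. It was 0.46 in the OAS family and in the remaining genes, 0.39 in the p200 family, 0.36 in the Schlafens, 0.35 in the PARP group and 0.25 in the nucleic acid binders. All 5 IFIT genes lay between 0.79 and 1.42, while within the Schlafens Slfn1 stood apart from the range of 0.33 to 0.37 of the other 3.

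**Figure D3:**
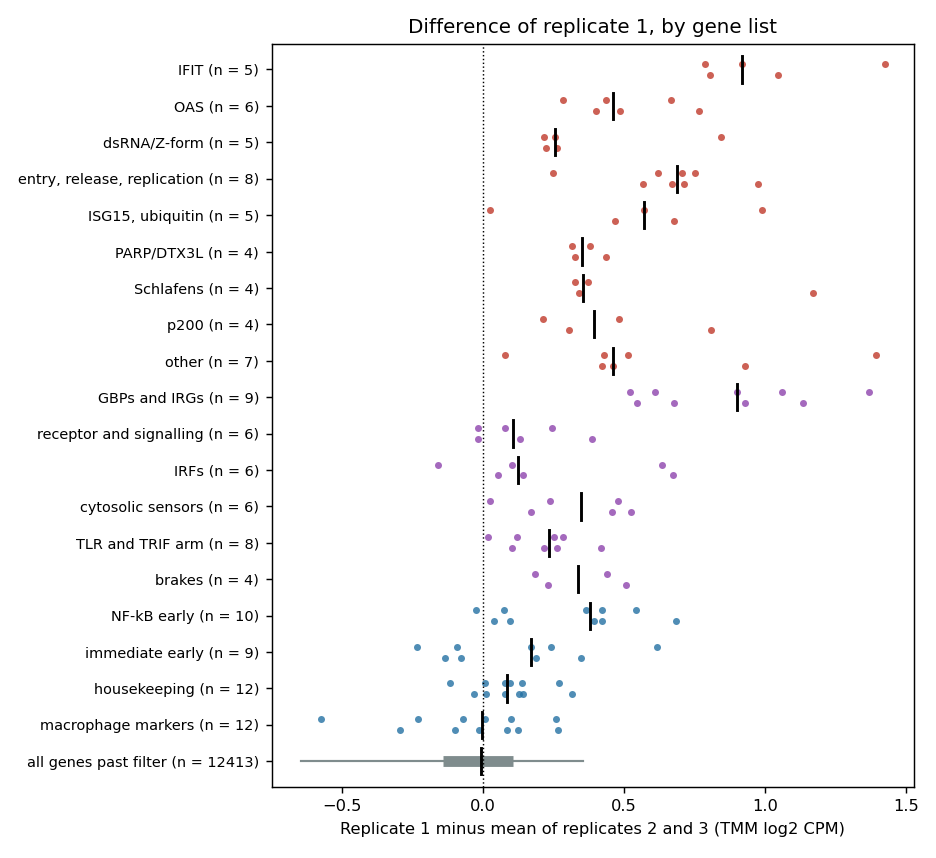
Difference of replicate 1 from the mean of replicates 2 and 3 (TMM log2 CPM) for each gene past the filter, by role (red), by other interferon pathway list (purple) and by comparison list (blue); black bars are medians. The grey bottom row gives the median, the middle 50% (thick) and the 5th to 95th percentile (thin, -0.65 to 0.35) of all 12413 genes; the lowest red point is 0.023.

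Genes that lie together were not always alike. In the chromosome 16 locus of Parp14, Dtx3l and Parp9 (35832874 to 35972605) the differences lay between 0.32 and 0.38. In the p200 locus on chromosome 1 (173630917 to 173913046) they spanned 0.21 for Ifi207 to 0.81 for Ifi209. Mx1 and Mx2, side by side on chromosome 16 (97447035 to 97560900), had 0.75 and 0.67. Across the 48 genes Spearman's rho between mean TPM and the difference was -0.25; genes share the libraries and are not independent, so this is a description.

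The SD between libraries was larger in these genes than in genes at large. Once replicate 1 was left out, it was smaller than over all genes past the filter. The median SD of log2 CPM was 0.29 over the 48 genes and 0.12 over all genes, or 0.10 over the 9716 genes with a mean TPM of at least 1. Without replicate 1 it was 0.072, against 0.10 over all genes, and genes with a mean TPM of at least 1 were not taken separately there. A range of at least 1 log2 unit was reached by 7 of 48 genes (Ifi44, Ifit1bl1, Slfn1, Ifit2, Isg20, Mx1 and Isg15), against 6.31% of all genes; without replicate 1 it was reached by 0 (4.18% of all genes), without replicate 2 by 4 (5.46%) and without replicate 3 by 6 (2.10%). The deposited 95% credibility intervals of TPM, which cover counting and read assignment within a library, did not overlap between the highest and lowest library for 48 of 48 genes, against 65.8% of protein-coding genes at 1 TPM or more in every library. The interval of replicate 1 lay above both others for 47 of 48 genes, against 39.0% of the same protein-coding genes. Between replicates 2 and 3 the intervals were separate for 21 of 48 genes, a larger share than the 27.9% of the same protein-coding genes. Those protein-coding genes were not matched to the 48 for level. Some intervals did not contain the TPM given here, as for Ifit2 in replicate 1 (147 TPM, interval 142 to 145).

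In log2 CPM, replicates 2 and 3 differed little over the list, with a median of -0.066 for replicate 2 minus replicate 3. They lay within 0.25 log2 units of each other for 39 of 48 genes. Oas2 was the exception in size, at -0.71, followed by Mx1 at -0.52 and Ddx60 at -0.46; these genes were named after their values were seen. Oas2 had 5.84, 5.20 and 5.91 log2 CPM in replicates 1, 2 and 3, so replicates 1 and 3 were alike and replicate 2 was low. Trim25 had 8.36, 8.27 and 8.41 log2 CPM. These are the 2 genes that were highest in replicate 3, and both were highest in replicate 1 when library totals alone or TPM set the scale.

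**Figure D4:**
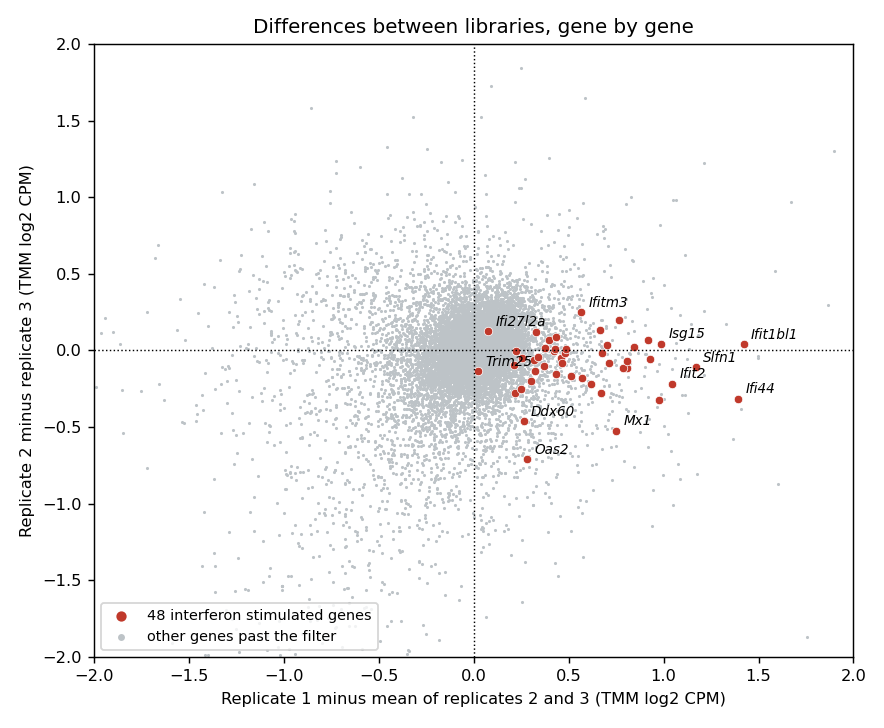
Replicate 2 minus replicate 3 (vertical) against replicate 1 minus the mean of replicates 2 and 3 (horizontal), both in TMM log2 CPM, for the 48 genes (red) and the other genes past the filter (grey); 150 genes lie outside the axes at 2 log2 units. The red points all lie right of 0 and mostly near the horizontal line, with Oas2, Mx1 and Ddx60 below it.

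The rest of the pathway was compared in lists chosen with earlier results known. Of 20 genes for type I and III interferons, 17 were at 0 counts throughout; such a 0 still permits 3 counts, or 0.114, 0.0716 and 0.0533 CPM in replicates 1, 2 and 3. Ifnb1, the interferon-beta gene, had 3, 3 and 1 counts, Ifnz had 1, 3 and 0, and Ifnk had 0, 0 and 3. The genes at 0 were Ifne, Ifnl2, Ifnl3, Ifnab and all 13 listed Ifna genes, so no difference in ligand RNA between libraries was detectable at this depth.

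The 6 receptor and signalling genes described here all reached 1 TPM in every library. The receptor gene Ifnar2 had 54.9, 41.6 and 46.0 TPM in replicates 1, 2 and 3, and the kinase gene Jak1 had 37.9, 33.3 and 33.3. Stat2, which forms part of ISGF3, had 36.5, 23.5 and 23.8 TPM. The gap between replicate 1 and the others was widest for Stat2. On the log2 CPM scale the difference of replicate 1 was 0.39 for Stat2, 0.24 for Irf9 and 0.13 for Tyk2. It was 0.078 for Ifnar2, -0.017 for Ifnar1 and -0.019 for Jak1. Stat2 and Irf9 are themselves known to be induced by interferon, and the part of interferon in these differences was not tested. Replicate 1 was the highest library for 4 of these 6 genes, with a median difference of 0.10.

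Among the interferon regulatory factors, replicate 1 was highest for 4 of 6. Irf7, the factor that amplifies interferon production, had 80.2, 45.1 and 39.7 TPM in replicates 1, 2 and 3, with a log2 CPM difference of 0.67. Irf8 had 60.3, 46.3 and 46.7 TPM with a difference of 0.14, and Irf5 had 37.0, 28.6 and 31.6 TPM with 0.052. Irf1 had 0.63 and Irf3, which is present before stimulation in most cells, -0.16. Of the cytosolic sensors, Ddx58 (RIG-I), Dhx58 and Ifih1 (MDA5) were the most abundant, and replicate 1 was highest for 5 of 6 with a median difference of 0.35. Ddx58 had 32.3, 19.4 and 20.0 TPM, Dhx58 had 22.5, 13.5 and 14.8, and Ifih1 had 13.8, 8.09 and 8.70.

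The guanylate binding proteins and immunity-related GTPases, which respond to interferon-gamma as well as to type I interferon, also stood high in replicate 1. It was the highest library for 9 of 9, at least 0.5 log2 units above the others for 9 of 9, with a median difference of 0.90. Irgm1 had 67.8, 42.0 and 38.3 TPM in replicates 1, 2 and 3, Gbp2 had 31.7, 12.3 and 12.3, and Irgm2 had 20.6, 11.6 and 11.3. Ifng itself had 0 counts in every library. A list of Toll-like receptors and the TRIF route to interferon-beta had 7 of 8 genes highest in replicate 1, with a median of 0.23. In it Tlr7, a receptor for RNA, had 77.3, 58.4 and 59.3 TPM, and Tlr4, the receptor for lipid A, had 33.8, 24.8 and 28.4. The 4 brakes on the receptor, such as Socs1 and Ptpn6, had a median of 0.34.

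Lists outside the interferon pathway were set beside these. The median difference of replicate 1 was 0.38 in 10 early NF-kB target genes, of which 7 were highest there. That lay below the median of 0.48 over the antiviral genes and above that of the receptor, regulatory factor, sensor, TLR and brake lists. It was 0.17 in 9 immediate early genes, 0.085 in 12 housekeeping genes and -0.0049 in 12 macrophage markers. Plasmacytoid dendritic cells, known as strong interferon producers, had 1 of 10 markers at 1 TPM or more in every library (Tcf4), and the list summed to 19.0, 15.3 and 16.6 TPM in replicates 1, 2 and 3. For nuclear-retained RNA the median differences of replicates 1, 2 and 3 from the other libraries were -0.38, -1.33 and 2.40. For mitochondrial mRNA they were -0.90, -0.12 and 1.04. By these medians both lists were highest in replicate 3. Nuclear-retained RNA was lowest in replicate 2 and mitochondrial mRNA in replicate 1. The part of these RNAs in the differences of the antiviral genes was not tested. In bulk RNA, a change in how many cells express a gene and in the amount per cell cannot be told apart.

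Transcript tables were used for genes whose isoforms bear on their function. Of the 180 annotated transcripts of the 48 genes, the leading one took at least 90% of the gene's TPM in 20 of the 38 genes that have more than 1, and it was protein-coding in 44 of all 48. Adar makes a long protein, found in the cytoplasm, from a start site known to respond to interferon, and a shorter nuclear one from another start. Transcripts with the long coding sequence (Adar-203 with 1178 and Adar-201 with 1152 residues, both starting at 89730748 on chromosome 3) took 77.6, 60.7 and 68.1% of Adar TPM in replicates 1, 2 and 3 (68.8 ± 8.47%). The shorter Adar-202 (930 residues), from the upstream start at 89715022, took 6.82, 15.2 and 9.22%. Adar-205 (634 residues), which starts where the long transcripts do, took 13.9, 23.9 and 17.6%, though its mean was 0.897% in the kallisto-format tables against 18.4%. Replicate 1 had the highest share of the long form and the lowest share of both shorter ones. No window of Adar held the core, and the window before the long transcripts held the shorter core GAAANNGAA at -249 and 34 while the windows at the upstream start held none.

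Mx1 and Mx2 make GTPases that trap viral particles, and C57BL mice are known to carry defective alleles of Mx1. Of Mx1 TPM, 56.3 ± 6.19% went to transcripts annotated for nonsense-mediated decay and 34.9 ± 4.61% to coding ones. In the kallisto-format tables these shares were 48.3 and 30.8%. The leading transcript, Mx1-205, is annotated for decay and took 46.3% in the RSEM-format tables but 12.1% in the kallisto-format tables. The transcript with the longest coding sequence, Mx1-201 (627 residues), took 0.296% in the RSEM-format tables and 4.88% in the kallisto-format tables. Mx2 is annotated as a polymorphic pseudogene, and Mx2-202 took 81.6 ± 4.35% of its TPM. Zbp1-202 (187 residues) took 66.1 ± 1.16% of Zbp1 TPM and the longer Zbp1-201 (411 residues) 32.5 ± 2.39%. A single transcript annotated for nonsense-mediated decay was also the leading one in Oasl2 (59.8%, and 47.6% in the kallisto-format tables) and Xaf1 (41.7 and 43.7%). In Xaf1 the coding transcripts together took more, at 54.5 ± 1.63%. Transcripts annotated for nonsense-mediated decay took 37.9 ± 5.61% in Oas1g. In the kallisto-format tables that share of Oas1g was 59.5%, so the leading transcript type differed between the tables. Shares of similar isoforms depend on how reads were assigned: Adar-201 took 15.8% in the RSEM-format tables and 47.0% in the kallisto-format tables, while Zbp1-202 took 66.1 and 66.8%.

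**Figure D5:**
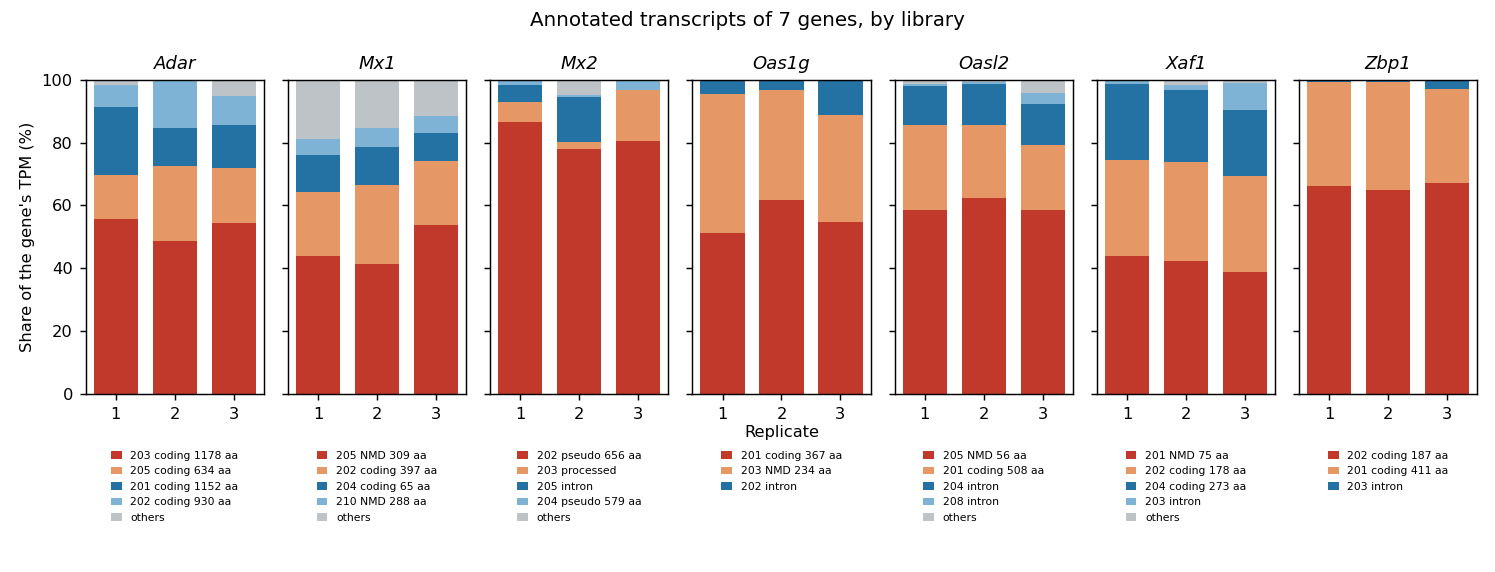
Share (%) of each gene's TPM taken by its annotated transcripts in replicates 1, 2 and 3, from the RSEM-format tables; colours give the 4 leading transcripts with their annotated type and protein length, and grey gives the others. The order of the leading transcripts is shared by the libraries for Zbp1, while in Adar the lightest blue segment (Adar-202) is smallest in replicate 1.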

How the data were processed

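Per the labels and notes deposited with each library, values refer to mm10 and GENCODE M21; the sources used here give no tool versions. Per the file headers, gene and transcript tables have the columns of RSEM and a second transcript table those of kallisto. The authors deposited expected counts (estimated reads per gene) and TPM and FPKM, both scaled for length and depth. The authors also deposited 95% credibility bounds of TPM, treated here as a score, and isoform shares as a percent, which were recomputed from TPM.

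Gene counts, rounded to whole numbers, were filtered and scaled by TMM in edgeR 4.0.16 (R 4.3.3), with log2 CPM at a prior count of 2. TMM factors were 1.04, 0.993 and 0.971 in replicates 1, 2 and 3. Entries that name no gene (tRNA, spike-ins) held 0.406, 0.121 and 0.0731% of counts and were left out. The scaling was also run on simulated counts, drawn with the same gene proportions in every library apart from a set of raised genes. The real libraries differ in composition, and that run cannot show how the scaling performs on them. DESeq2 1.42.0 size factors were one alternative. Floors of 3 counts cover counting error only. With 1 group there was no contrast, so differences are values with no p. Words of 31 bases came from GENCODE M21 transcripts, and promoter windows from RefSeq (GRCm38.p6).

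The 48 genes, lists and settings were chosen with earlier results of these data known. Values in every library are given, in each role group, for the 2 genes with the highest mean TPM, the gene with the largest range of log2 CPM and any gene with a mean TPM below 1; in pathway lists, for up to 3 of the highest genes and those at 0. Other values were named for a paralog, an isoform, a sequence or an extreme. One gene of the receptor and signalling list is not reported here.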

Additional observations from a re-analysis of the deposited data

How the results depend on the processing

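Of 106 alternative values, 90 kept their direction and stayed within 1.5 times (counts) or within the spread between libraries (other values), 15 moved further and 1 turned. The median level was 9.19 TPM in the kallisto-format tables and 89.1 TPM when TPM was rescaled over protein-coding genes, against 21.1 TPM (each the mean of the medians in the 3 libraries). Genes with a range of at least 1 log2 unit numbered 12 on log2(TPM + 1) and 14 on log2(TPM + 0.1) (1.22 and 4.54% of all genes), against 7, and 0 to 6 with a replicate left out. On log2(TPM + 1) the median of all genes in replicate 1 moved by 0.16, and the antiviral genes lay 0.52 above that; on that scale 72.0% of all genes were highest in replicate 1. Replicate 3 was highest for 0 genes with library totals alone and on both TPM scales. Only 27 genes have at least 95% of their 31-base words to themselves, a limit chosen after the data were seen; 25 of these were highest in replicate 1. With a replicate left out, the median SD ran from 0.072 to 0.36, the median difference of replicate 2 from -0.51 to -0.063 and of replicate 3 from -0.49 to 0.063, and genes with separate intervals from 21 to 48 (27.9 to 54.0% of protein-coding genes). Asking for a gap of 1.5 times between intervals left 28 (2.77%). The long Adar share was 80.8% in kallisto-format tables and 78.1% from expected counts. No paired analysis was possible because the series holds 1 group. Depth limits Slfn1, Isg20, Mx2 and Ifit1bl1, with 81, 105, 202 and 266 counts in their lowest library, and the interferon genes.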
